A study of Mus musculus with 20 samples.

Results

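The genes described here encode the AP-1 transcription factors and their relatives: the Fos proteins (Fos, Fosb, Fosl1, Fosl2), the Jun proteins (Jun, Junb, Jund), the stress-induced factor Atf3, and Batf and Batf2. They were chosen by name and matched from symbol to Ensembl identifier, which gave all 10 of 10 genes among the 49315 identifiers of the deposited count tables. The RNA came from mouse lung cells sorted as eosinophils, and each library drew on 3 to 5 pooled mice. The resting group (n = 5 libraries) came from untreated C57BL/6 mice. The day 7 group (n = 5) came from lungs of Balb/c donors, 7 days after transplantation into C57BL/6 recipients, in samples titled as without CSB. CSB is read here as costimulatory blockade, a treatment that withholds accessory signals from T cells. The growth protocol attached to every sample speaks of transplantation under this blockade, so the absence of blockade rests on the sample titles. Per that protocol the eosinophils found in the graft stem from the recipient. The labels give no age, sex or surface markers of the sort. Nothing in the labels says that the pools were housed or operated on separately, so the p-values measure the spread between pools, which may be technical.

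AP-1 proteins share a basic region that contacts DNA and a leucine zipper through which they pair. Fos proteins bind DNA only after pairing with a Jun protein, whereas Jun proteins can also pair with each other. Fos, Fosb, Jun, Junb and Atf3 are immediate early genes, switched on quickly and briefly by growth factors, cytokines, stress and the handling of tissue. Batf proteins have a basic region and a zipper but no activation domain of their own, and with Jun partners and the interferon regulatory factors Irf4 and Irf8 they occupy composite DNA elements. In granulocytes and macrophages these factors act on genes for cytokines, chemokines and matrix proteases.

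Total counts were 6666577 to 12883144 in the resting libraries and 15695074 to 26683784 in the day 7 libraries. The columns of the 2 groups stood in separate deposited tables, so a batch of processing or sequencing cannot be told apart from the group. Eosinophil markers were present in every library: Siglecf, a lectin of the eosinophil surface, lay between 105 and 300.1 CPM and Ccr3, the eotaxin receptor, between 159 and 811 CPM. CPM is the count scaled to a common library total, here after TMM scaling, which corrects totals for differences in composition. Of 12 eosinophil markers 1, Siglecf, was higher and 6 were lower at day 7 (Epx, Prg2, Prg3, Ear1, Ear2 and Ear6, which encode granule proteins). Epx, the eosinophil peroxidase gene, ranged over 22.5 to 171 CPM in resting and 0.55 to 9.62 CPM in day 7 libraries. Prg2, the major basic protein gene, ranged over 229 to 697 CPM and 34.1 to 166 CPM. Markers of other cells were present too. Endothelial markers (10 of 10 lower at day 7) summed to 1964 to 2657 CPM in resting lung and 82.1 to 155.5 CPM in the graft. Epithelial markers (9 of 10 lower) went from 3183 to 4550 CPM down to 40.8 to 496 CPM, and those of red cells and platelets (8 of 8 lower) from 1411 to 2131 CPM down to 99.0 to 164 CPM. Monocyte and macrophage markers (11 of 14 higher, 0 lower) summed to 6885 to 10830 CPM and 13130 to 24970 CPM. T cell markers (12 of 12 higher) summed to 104 to 147 CPM and 397 to 1012 CPM. Neutrophil markers (0 higher and 3 lower of 10) summed to 8855 to 11540 CPM and 4853 to 8918 CPM. Beside all these counts, 23.3% of all genes tested were higher and 23.4% lower at day 7. The 30.0% of neutrophil markers that were lower lies near that share. Of these lists no marker was at 0 throughout a group. In such bulk libraries fewer cells of a type and less RNA per cell cannot be told apart, and the part of these other cells in the results below was not tested.

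The AP-1 genes split by direction. Of the 10 genes, all of which passed the filter on low counts, 5 were lower at day 7 (Fos, Fosb, Fosl1, Jun and Atf3), 3 were higher (Fosl2, Batf and Batf2) and 2 did not pass the test (Junb and Jund). Calls are at an adjusted p below 0.05 from edgeR's quasi-likelihood test, with Benjamini-Hochberg adjustment over all 16500 genes tested. Over all those genes 23.4% were lower, 23.3% were higher and 46.7% were called in either direction. The median log2 fold change, day 7 minus resting, was -0.40 over the 10 genes and 0.05 over all genes tested. With library totals in place of TMM scaling the median of all genes moved by -0.19, higher genes went from 49.9% to 33.8% of the calls, and the 10 genes gave 2 higher and 6 lower. The libraries of both groups did not overlap for 7 of the 10 genes, against 35.1% of all genes tested.

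**Figure D1:**
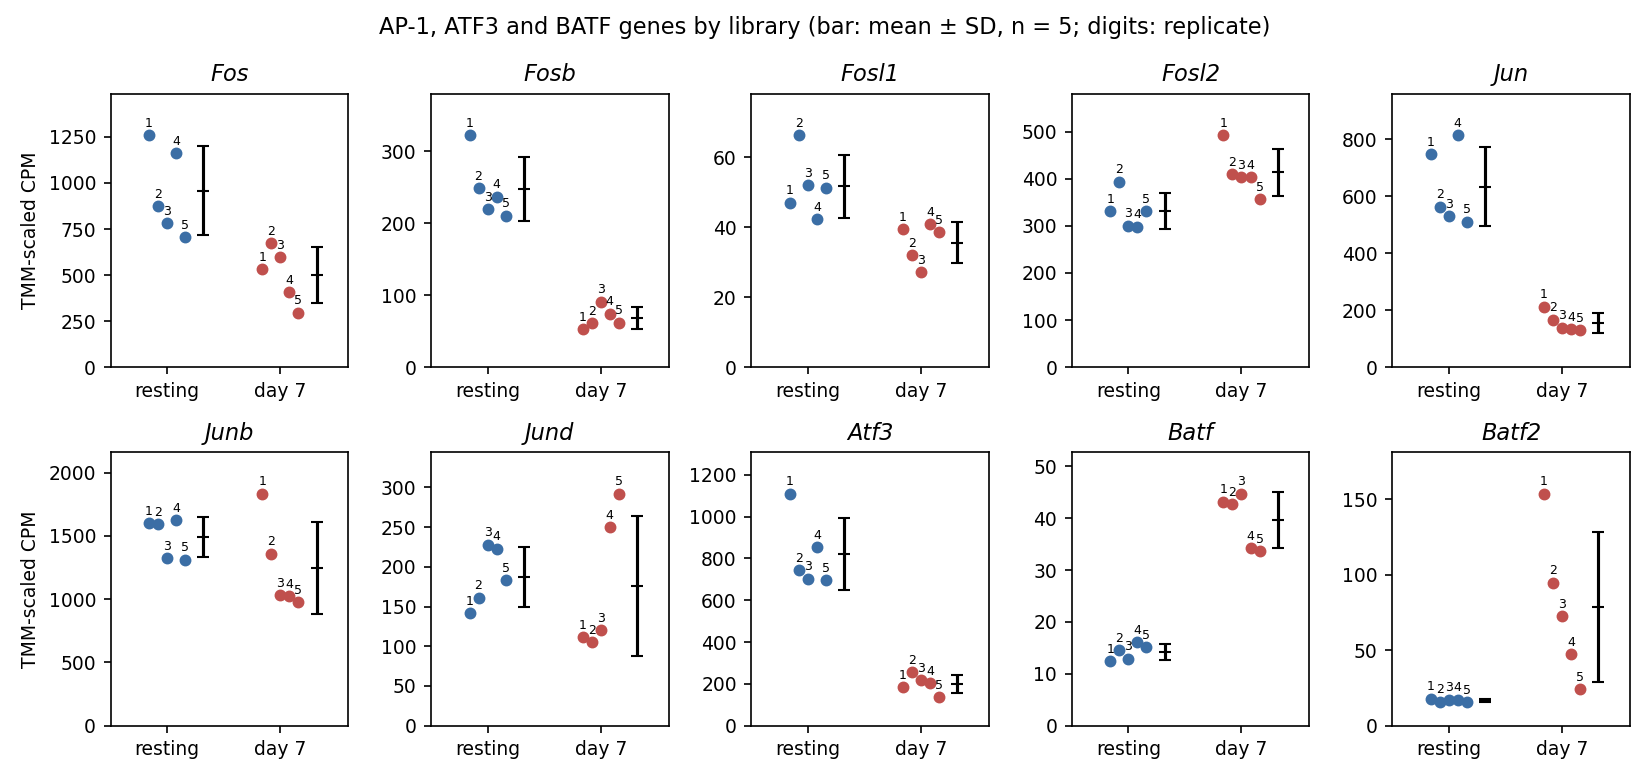
TMM-scaled CPM (y axis, each panel from 0) of the 10 genes in each of the 5 resting libraries (blue) and 5 day 7 libraries (red), with the replicate number beside each point and the mean ± SD as a bar. Fos, Fosb, Fosl1, Jun and Atf3 are lower at day 7 without overlap, Batf and Batf2 are higher without overlap, and the groups overlap for Fosl2, Junb and Jund.

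Among the immediate early members, Jun, Atf3 and Fosb had the largest falls. Jun, the founding Jun protein, is encoded by a single exon of 3189 bases (ENSMUSG00000052684, chromosome 4, 95049034 to 95052222, minus strand, mm10). It stood at 748, 564, 529, 814 and 510 CPM in resting replicates 1 to 5 and at 213, 166, 138, 134 and 130.0 CPM in day 7 replicates 1 to 5. Every resting library lay above every day 7 library, with resting replicates 1 and 4 highest. The means were 633 ± 138 and 156 ± 34.7 CPM (SD, n = 5 each), which is 4.05-fold lower in the graft (log2 fold change -2.02 ± 0.18 SE, edgeR adjusted p = 1.02e-06). An antisense gene, Junos, shares 232 exonic bases with Jun and had 2.00 ± 0.54 and 4.37 ± 3.14 CPM. Whether the counting used strand is not stated in the labels.

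Atf3, which the same stresses induce and which mostly represses transcription as a homodimer (ENSMUSG00000026628, chromosome 1, 191170296 to 191218039, minus strand), had 1109, 743, 703, 854 and 697 CPM in the resting replicates. At day 7 the values were 184, 257, 217, 204 and 136 CPM. The groups did not overlap, and resting replicates 1 and 4 were again the highest. Atf3 was 4.12-fold lower (log2 fold change -2.04 ± 0.19, edgeR adjusted p = 1.06e-06). Fosb, a Fos protein with a strong activation domain (ENSMUSG00000003545, chromosome 7, 19302696 to 19310051, minus strand), had 322, 249, 220.1, 237 and 211 CPM in resting lung. It had 52.6, 60.9, 90.9, 74.6 and 62.1 CPM in the graft. The highest day 7 library, replicate 3, was below the lowest resting library, replicate 5. Fosb was 3.63-fold lower (log2 fold change -1.86 ± 0.17, edgeR adjusted p = 8.42e-07).

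Fos itself (ENSMUSG00000021250, chromosome 12, 85473890 to 85477273, plus strand) fell less. Its resting values were 1259, 875, 782, 1161 and 707 CPM and its day 7 values 530.3, 673, 598, 406 and 296 CPM. The groups were separated only by the gap between resting replicate 5 and day 7 replicate 2. Fos was 1.91-fold lower (log2 fold change -0.93 ± 0.23, edgeR adjusted p = 0.00420). Without resting replicates 1 and 4 and day 7 replicate 1, the pools with the least Ccr3 in their groups, the log2 fold change was -0.66 and the call ended (edgeR adjusted p = 0.0644). This alternative was chosen after seeing the data.

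**Figure D2:**
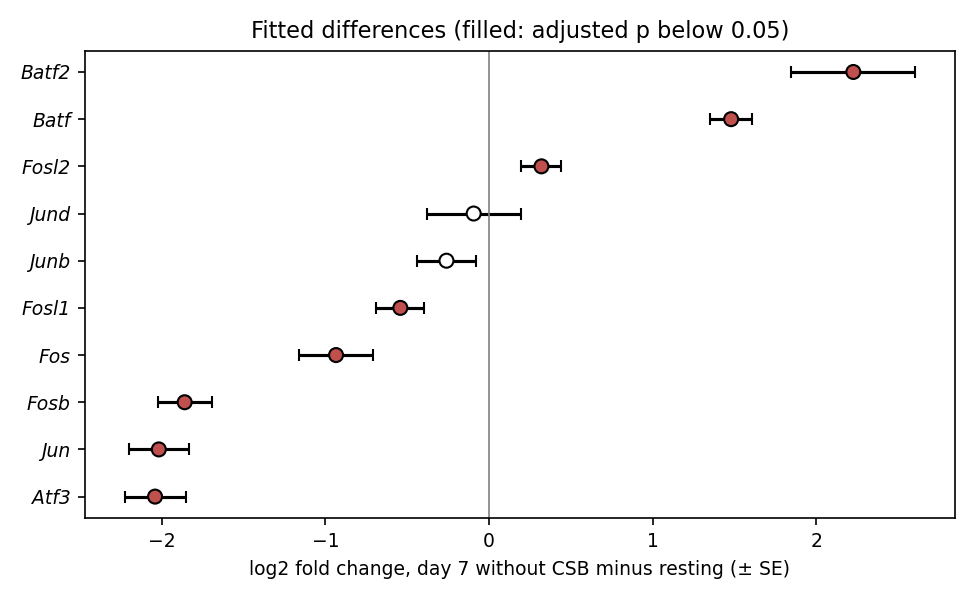
Fitted log2 fold changes (x axis, day 7 without CSB minus resting, ± SE) of the 10 genes, ordered by size, filled where the adjusted p was below 0.05. Atf3 (-2.04), Jun (-2.02) and Fosb (-1.86) lie farthest to the left and Batf2 (2.23) and Batf (1.48) farthest to the right.

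The early response of Fos and its relatives is known to run in part through cAMP response elements and AP-1-like sites near the start of transcription. The stretches just upstream of the RefSeq start are therefore shown for some of these genes. The 250 bases before the RefSeq start were taken from RefSeq on GRCm38.p6, written along the strand of the gene from 5′ to 3′. Capitals mark TGACG, the core of the cAMP response element, on either strand (CGTCA where it lies on the other strand), and TGACATCA, the variant AP-1 site of Jun. The 4 genes that fell and belong to the immediate early class come first, followed by Batf, which rose.
Fos, chr12:85473640-85473889, plus strand: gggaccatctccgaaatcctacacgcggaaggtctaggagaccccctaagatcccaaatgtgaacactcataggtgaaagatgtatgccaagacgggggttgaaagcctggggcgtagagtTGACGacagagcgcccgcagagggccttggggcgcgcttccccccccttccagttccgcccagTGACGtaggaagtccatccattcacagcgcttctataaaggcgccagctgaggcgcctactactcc
Fosb, chr7:19310046-19310295, minus strand: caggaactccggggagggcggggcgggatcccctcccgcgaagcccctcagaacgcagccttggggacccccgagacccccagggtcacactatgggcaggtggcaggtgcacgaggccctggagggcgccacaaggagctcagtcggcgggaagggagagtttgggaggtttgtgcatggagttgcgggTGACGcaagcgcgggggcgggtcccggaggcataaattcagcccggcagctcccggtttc
Jun, chr4:95052223-95052472, minus strand: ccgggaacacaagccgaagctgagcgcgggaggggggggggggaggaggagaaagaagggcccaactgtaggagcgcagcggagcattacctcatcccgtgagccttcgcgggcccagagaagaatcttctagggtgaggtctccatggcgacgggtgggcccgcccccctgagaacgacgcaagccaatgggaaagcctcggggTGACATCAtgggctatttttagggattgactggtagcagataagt
Atf3, chr1:191183334-191183583, minus strand: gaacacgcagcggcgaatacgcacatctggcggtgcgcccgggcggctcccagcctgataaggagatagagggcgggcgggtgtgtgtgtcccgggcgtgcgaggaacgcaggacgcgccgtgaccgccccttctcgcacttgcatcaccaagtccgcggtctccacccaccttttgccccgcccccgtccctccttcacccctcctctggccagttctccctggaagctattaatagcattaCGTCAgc
Batf, chr12:85686470-85686719, plus strand: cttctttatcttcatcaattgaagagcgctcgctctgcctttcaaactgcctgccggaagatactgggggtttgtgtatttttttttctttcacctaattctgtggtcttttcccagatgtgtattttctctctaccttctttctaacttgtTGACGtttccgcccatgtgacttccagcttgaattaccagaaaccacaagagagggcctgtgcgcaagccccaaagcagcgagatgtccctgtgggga

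The promoter table held 8 of the 10 genes, not Fosl1 and Batf2. The Atf3 window and that of Fosl2 (chr5:32136222-32136471) lie inside the gene spans given here, downstream of their 5′ ends. The Fosb and Batf windows reach partly into their gene spans. For Junb and Jund the first bases after the RefSeq start were not in a GENCODE transcript of the gene, and the Jund window, chr8:70697489-70697738, lies upstream of the gene span given here. TGACG, searched on both strands, was in the window of 5 of the 8 (Fos, Fosb, Junb, Atf3 and Batf) and in 17.8% of all 32851 promoter windows of the same length. Without Junb and Jund it was in 4 of 6. This motif was added to the search after seeing the data or sequences, so its counts are a description and no test. In Fos it lay at -129 and at -66 from the start, in Fosb at -60, in Junb at -106, in Batf at -98 and in Atf3 at -7, each position being the first base of the match in the direction of transcription. TGACATCA lay from -45 to -38 in Jun and was in 2.93% of all windows. The full palindrome TGACGTCA, which contains TGACG, was in 0 of the 8 windows and in 1.55% of all windows. The AP-1 site TGANTCA was in 0 of the 8 and in 6.75% of all, the interferon-gamma-activated element TTCNNNGAA in 0 of the 8 and in 7.02% of all, and the CArG box of the serum response factor in 0 of the 8 and in 1.47% of all. TATAAA, the TATA box, was in the Fos window, from -33 to -28, and in 12.4% of all windows. The interferon-stimulated element, searched as GAAA followed after 2 bases by GAAA, was in the Fosl2 window on the opposite strand and in 2.98% of all. Every motif was searched on both strands. TGACG thus stood in the windows of genes that fell (Fos, Fosb, Atf3), of Batf, which rose, and of Junb, which did not pass. The search says nothing of sites outside them.

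The remaining Fos proteins, Fosl1 and Fosl2, lack the strong activation domain of Fos. Fosl1 (ENSMUSG00000024912, chromosome 19, 5447547 to 5455946, plus strand) had 46.9, 66.2, 52.0, 42.2 and 51.3 CPM in resting lung and 39.5, 31.9, 27.2, 40.8 and 38.5 CPM in the graft. The groups lay close without overlapping, and Fosl1 was 1.46-fold lower (log2 fold change -0.54 ± 0.15, edgeR adjusted p = 0.00787). Of its 2033 exonic bases, 1163 are shared with Ccdc85b on the opposite strand, so reads of these genes may not have been told apart. Ccdc85b went from 22.9 ± 5.77 to 3.69 ± 0.61 CPM.

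Fosl2 (ENSMUSG00000029135, chromosome 5, 32135801 to 32157842, plus strand) moved the other way. It had 330.4, 394, 300.4, 298 and 332 CPM in resting lung and 492, 410.3, 404, 403 and 357 CPM in the graft. The groups overlapped, since resting replicate 2 lay above day 7 replicate 5. The log2 fold change was 0.32 ± 0.12 (edgeR adjusted p = 0.0452). Fosl2 no longer passed under 5 of 7 other settings, the highest adjusted p being 0.371 with library totals alone. Leaving out any single library except resting replicate 2 and day 7 replicate 5 had the same effect, with adjusted p values up to 0.102.

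Junb and Jund, the other Jun proteins, did not pass. Junb (ENSMUSG00000052837, chromosome 8, 84974484 to 84978718, minus strand) is a weaker activator than Jun and can oppose it. Its resting values of 1600, 1595, 1322, 1622 and 1313 CPM overlapped its day 7 values of 1833, 1359, 1032, 1024 and 975 CPM. Day 7 replicate 1 was the highest library of all and replicates 3 to 5 were below every resting library. The log2 fold change was -0.26 ± 0.18 (edgeR adjusted p = 0.258). Without day 7 replicate 1 it was -0.43 and passed (edgeR adjusted p = 0.0255), as it did with library totals alone (-0.47, adjusted p = 0.0361). Junb shares 173 exonic bases with Prdx2 on the opposite strand, which rose from a mean of 62.9 to 99.6 CPM (log2 fold change 0.66, edgeR adjusted p = 0.00085).

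Jund, the Jun protein made most evenly across tissues (ENSMUSG00000071076, chromosome 8, 70698949 to 70700616, plus strand), had 141, 161, 228, 223 and 183 CPM in resting lung. The day 7 libraries fell apart into replicates 1 to 3, with 111, 105 and 120.2 CPM, and replicates 4 and 5, with 249.9 and 292 CPM. The former lay below every resting library and the latter above. The log2 fold change of -0.09 ± 0.29 had an edgeR adjusted p of 0.818. In its annotation 877 of 1668 exonic bases are shared with an antisense gene, Gm11175, which had 0 counts in all 10 libraries.

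Batf and Batf2 rose. Batf (ENSMUSG00000034266, chromosome 12, 85686669 to 85709087, plus strand), a factor needed for several effector programmes of lymphocytes, had 12.4, 14.5, 12.9, 16.1 and 15.2 CPM in resting lung. In the graft it had 43.1, 42.7, 44.7, 34.2 and 33.6 CPM. The groups did not overlap and the spread within each was small, 10.9% and 13.4% of the mean as a coefficient of variation. Batf was 2.79-fold higher (log2 fold change 1.48 ± 0.13, edgeR adjusted p = 6.94e-07). T cell markers, whose cells also make Batf, rose in the same libraries (12 of 12). T cell markers summed to 642, 397, 675.5, 575 and 1012 CPM in day 7 replicates 1 to 5. The part of T cells in the rise of Batf was not tested.

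Batf2 (ENSMUSG00000039699, chromosome 19, 6140983 to 6172476, plus strand), an interferon-induced relative active in macrophages, had the largest rise and the widest spread. Its resting values of 17.8, 15.9, 17.3, 17.2 and 15.8 CPM were nearly level, with a coefficient of variation of 5.31%. Its day 7 values were 154, 94.7, 72.7, 47.4 and 24.4 CPM, a ratio of 6.30 between the highest and the lowest pool. All day 7 libraries lay above all resting libraries. Batf2 was 4.68-fold higher (log2 fold change 2.23 ± 0.38, edgeR adjusted p = 0.000334). Monocyte and macrophage markers summed to 16730, 24970, 19210, 16130 and 13130 CPM in day 7 replicates 1 to 5. The pool with the least Batf2 was thus the lowest in these markers too, but the pool with the most Batf2 was not the highest. Batf2 shares 51 exonic bases with Arl2 on the opposite strand.

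**Figure D3:**
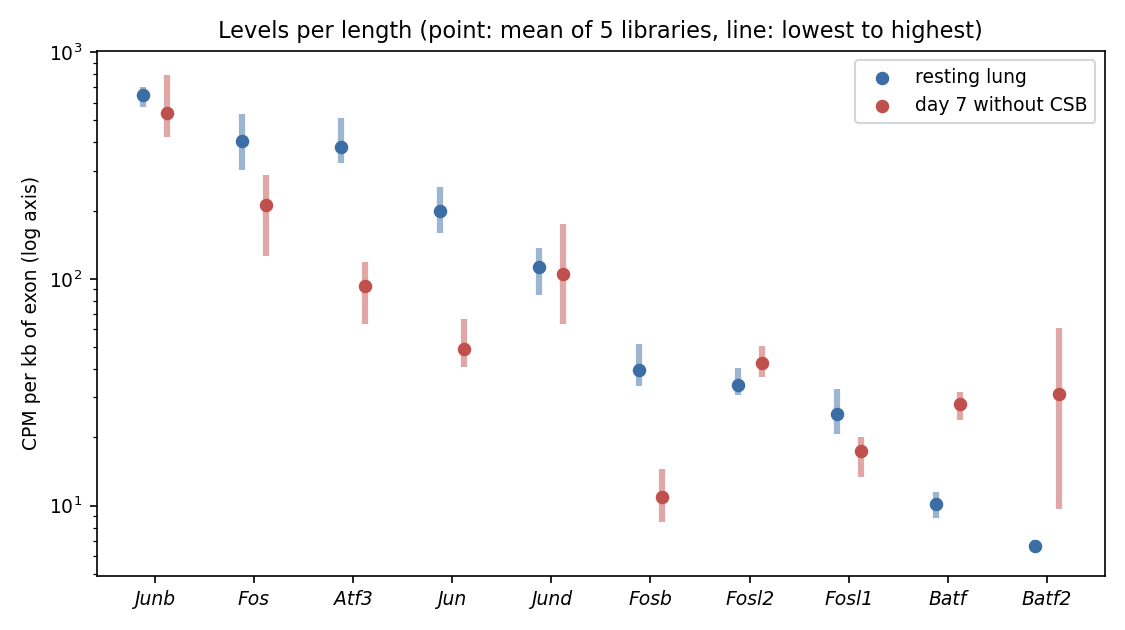
Level of each gene as CPM per kb of annotated exon (y axis, log scale) in resting lung (blue) and at day 7 (red), where points are means of 5 libraries and lines run from the lowest to the highest library. Junb is the highest of the 10 in both groups (648 and 541 CPM per kb), and Batf2 goes from the lowest position (6.66) to 31.2.

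Levels of different genes were compared as CPM per kb of exon. In resting lung Junb was highest at 648 ± 68.8, followed by Fos at 407 ± 102.5, Atf3 at 381 ± 80.2, Jun at 198 ± 43.4 and Jund at 112 ± 22.7. Fosb (39.7 ± 7.08), Fosl2 (34.2 ± 3.98) and Fosl1 (25.4 ± 4.43) formed a lower tier, above Batf (10.1 ± 1.10) and Batf2 (6.66 ± 0.35). The library ranges of Fos and Atf3 overlapped, as did those of Fosb and Fosl2 and of Fosl2 and Fosl1, while the other neighbours in this order were separate. In the graft Junb (541 ± 158) and Fos (213 ± 64.1) stayed in front and Fosb (10.9 ± 2.39) came last. Between Fos and Batf every pair of neighbours overlapped in the graft, in the order Fos, Jund, Atf3, Jun, Fosl2, Batf2, Batf. Taken per kb, Batf at 28.2 ± 3.79 was above Fosl1 (17.5 ± 2.86) and Fosb in every day 7 library, the reverse of resting lung.

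The make-up of each family followed from these levels. Jun supplied 20.5 ± 2.47% of the summed Jun family level per kb in resting lung (18.3 to 23.3% over the libraries) and 7.04 ± 0.55% in the graft (6.37 to 7.68%). Junb supplied 67.6 ± 2.84% and 77.0 ± 8.55%. Within the Fos family the share of Fosl2 went from 6.99 ± 1.64% to 15.6 ± 3.04% and that of Fosb from 7.92 ± 0.81% to 4.01 ± 1.17%, while Fos made up 79.8 ± 3.81% and 73.8 ± 6.16%. The libraries of both groups did not overlap for the shares of Jun, Fosb and Fosl2. These shares restate the levels and were not tested.

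Several genes set the same pools of a group apart. In resting lung replicates 1 and 4 had the most Fos (1259 and 1161 CPM, the other three 707 to 875), the most Jun and the most Atf3. The same pair had the least Ccr3, 252 and 159 CPM against 442 to 472 in the other three, and the smallest sums of eosinophil markers, 1660 and 2045 CPM against 2553 to 3142. The granule genes did not share this order: in resting replicate 4 Epx (163 CPM) and Prg2 (600.5 CPM) were each the second highest of the 5 pools, and in replicate 1 the lowest (22.5 and 229 CPM). Retnlg, a marker in the neutrophil list, was lowest in replicates 1 and 4, with 3505 and 2423 CPM against 6281 to 7288. The neutrophil list as a whole did not share this order. Its sums in resting replicates 1 to 5 were 9669, 11540, 10860, 8855 and 8864 CPM. Replicates 1 and 4 also had the largest sums of endothelial markers, 2657 and 2391 CPM against 1964 to 2202. At day 7 the order of the 5 pools by Batf2 was the reverse of their order by Ccr3: replicate 1 had the most Batf2 and the least Ccr3 (171 CPM) and replicate 5 the least Batf2 and the most Ccr3 (811 CPM). Jund was highest in replicates 4 and 5, the pools with the most Ccr3. Eosinophil marker sums at day 7 ran from 889 CPM in replicate 1 to 3121 CPM in replicate 5. The part of cell composition in these differences between pools was not tested.

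**Figure D4:**
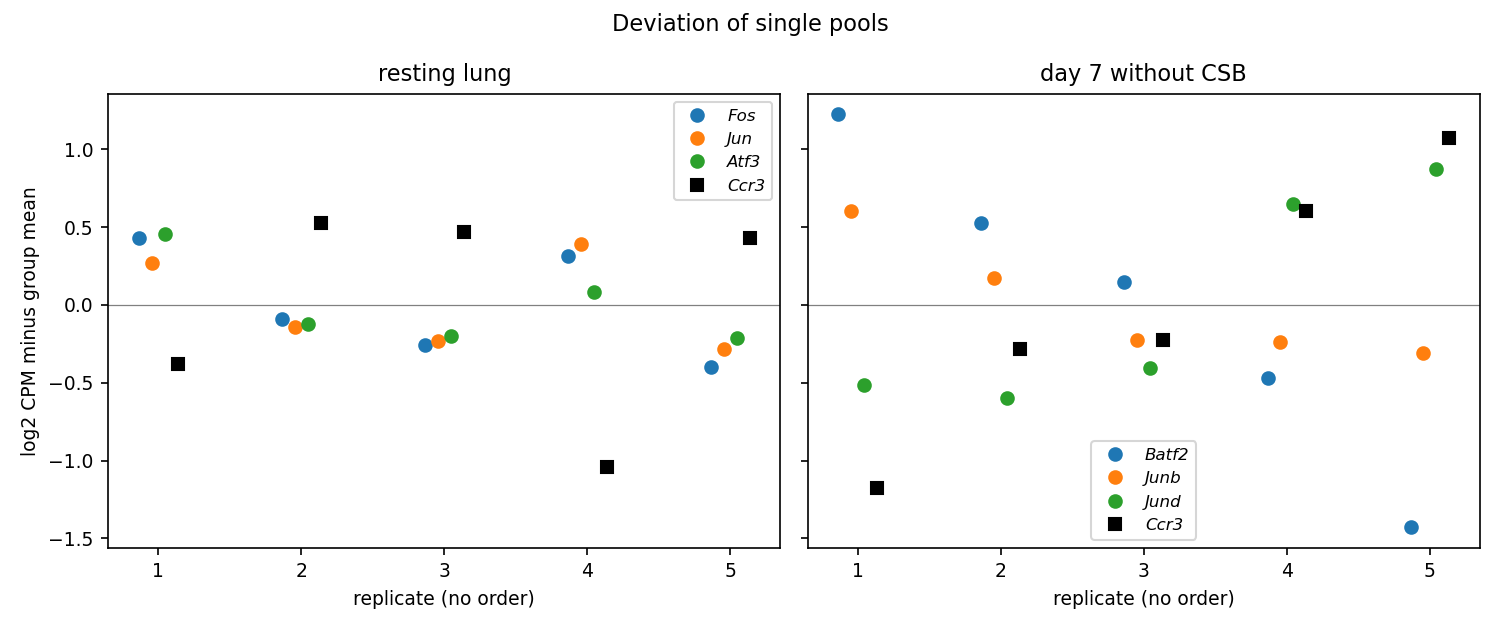
Log2 CPM of single pools minus the mean of their group (y axis) for Fos, Jun, Atf3 and Ccr3 in the 5 resting replicates (left) and for Batf2, Junb, Jund and Ccr3 in the 5 day 7 replicates (right), where replicate numbers carry no order. In resting replicates 1 and 4 Fos, Jun and Atf3 lie above their means and Ccr3 below, and at day 7 Batf2 lies highest where Ccr3 is lowest (171 CPM).

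Genes with the most similar profile were sought among 8648 named genes with at least 10 CPM, by the root-mean-square difference of log2 CPM over the 10 libraries after centring each gene on its own mean. Nearest to Batf were H2-T22, a non-classical class I molecule (difference 0.12), Pfkp, a glycolytic enzyme (0.12), and Psme1, a proteasome activator subunit (0.13). Nearest to Batf2 were Mefv, which encodes pyrin (0.19), the copper transporter Slc31a1 (0.21) and the formyl peptide receptor Fpr2 (0.27). Jun had Gsn (0.16) and Rcan1 (0.17) as neighbours, and Atf3 had Ehd4 (0.16), Pak4 (0.19) and Rhoc (0.19). Closest to Fos were Slc35e4 (0.12), Tubb2a (0.14) and Frmd4a (0.15). For Junb the nearest was Ppp1r15a (0.11), another immediate early gene, which did not pass either (log2 fold change -0.39, edgeR adjusted p = 0.117).

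Genes that act with AP-1 were taken from 5 lists. Of 28 other immediate early genes, 7 were higher, 9 lower and 12 did not pass, with a median log2 fold change of 0.04. These counts lie near the shares over all genes tested, 23.3% higher and 23.4% lower. Egr1, a zinc finger factor induced together with Fos, fell from 1007 ± 230 to 323 ± 243 CPM (log2 fold change -1.64, edgeR adjusted p = 0.00608), and its day 7 libraries ranged from 711 CPM in replicate 1 to 121 CPM in replicate 5. Klf4 fell from 65.4 ± 12.3 to 26.7 ± 8.86 CPM. Nr4a2, an orphan nuclear receptor, rose from 72.7 ± 15.9 to 177 ± 54.5 CPM, and Dusp2, a phosphatase that switches MAP kinases off, from 42.1 ± 4.26 to 97.3 ± 14.0 CPM. Heat shock genes, which tissue handling can also induce, were higher in 3 and lower in 6 of 14 cases. That is 21.4% and 42.9%, against 23.3% and 23.4% of all genes tested. The 13 mitochondrially encoded genes were all lower. The part of tissue handling in these values was not tested.

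Among 29 other factors with a basic region and zipper, 14 were higher (48.3%) and 5 lower (17.2%), with a median log2 fold change of 0.37. Over all genes tested the shares were 23.3% higher and 23.4% lower. Creb5 rose from 19.7 ± 6.99 to 88.7 ± 44.7 CPM and Nfil3, a repressor active in lymphoid and myeloid cells, from 58.1 ± 9.36 to 256 ± 52.3 CPM (log2 fold change 2.14 ± 0.16, edgeR adjusted p = 1.76e-07). Cebpd fell from 214 ± 49.9 to 24.1 ± 6.44 CPM (log2 fold change -3.15 ± 0.22, edgeR adjusted p = 8.95e-08), a larger fall than that of any AP-1 gene here, and Nfe2l1 from 166 ± 14.5 to 67.7 ± 11.2 CPM. With library totals alone 8 of these factors were lower. The interferon regulatory factors listed as partners of Batf, Irf8 and Irf4, both rose. Irf8 went from 76.7 ± 17.8 to 420 ± 75.9 CPM and Irf4 from 6.75 ± 0.55 to 17.3 ± 3.47 CPM, each without overlap. Over all genes tested 23.3% were higher, and the groups did not overlap for 35.1%. Among the Jun partners of Batf, Jun fell and Junb and Jund did not pass.

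The 30 MAP kinases and upstream factors held 7 higher and 7 lower genes, with a median log2 fold change of -0.03. These shares are those of all genes tested (23.3% higher and 23.4% lower). Mapkapk2, a kinase downstream of p38, rose from 189 ± 38.7 to 498 ± 119 CPM and Map2k4, which activates the Jun kinases, from 77.5 to 133 CPM (log2 fold change 0.78 ± 0.13). Map3k11 fell from 148 ± 13.6 to 67.0 ± 9.26 CPM and Mef2c from 95.6 ± 16.5 to 46.1 ± 7.69 CPM. With library totals alone 11 of these genes were lower.

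Textbook targets of AP-1 went mostly up. Of 24 genes, 23 could be tested, and 16 were higher, 3 lower and 4 did not pass, with a median log2 fold change of 1.55. Rises made up 69.6% and falls 13.0% of the tested targets, against 23.3% and 23.4% of the 16500 genes in the whole test. Mmp12, the macrophage elastase, rose from 6.43 ± 1.06 to 76.8 ± 29.4 CPM and Mmp14, a membrane-bound matrix protease, from 20.3 ± 2.10 to 140.1 ± 67.8 CPM. Mmp3, which fell from 8.76 ± 1.61 to 0.72 ± 0.71 CPM, and Hbegf, a growth factor, from 45.7 ± 10.3 to 13.1 ± 5.42 CPM, went the other way. Many of these targets, Mmp12 among them, are made by macrophages, whose markers rose in the same libraries (11 of 14). In day 7 replicates 1 to 5 Mmp12 had 63.0, 59.0, 99.4, 115.9 and 46.6 CPM. Monocyte and macrophage markers there summed to 16730, 24970, 19210, 16130 and 13130 CPM. The part of macrophages in the rise of these targets was not tested.

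**Figure D5:**
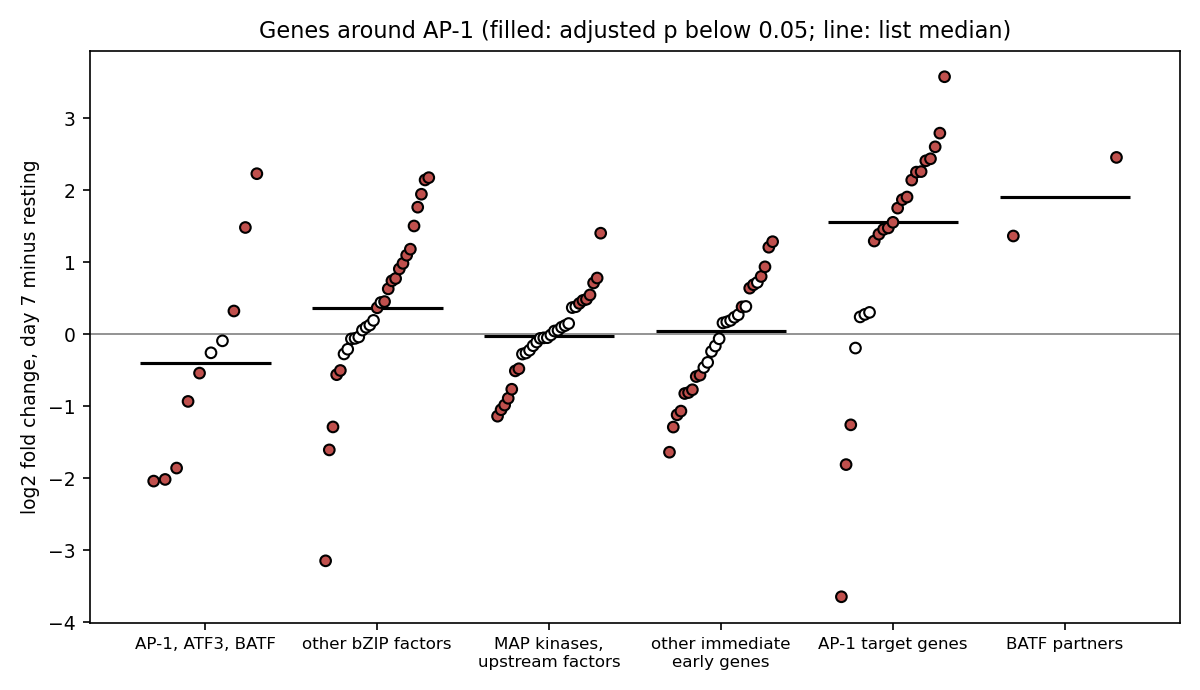
Log2 fold changes (y axis, day 7 minus resting) of the single genes in the AP-1 set and in 5 lists around it, sorted within each list, filled where the adjusted p was below 0.05, with the list median as a line. The medians are -0.40 for the AP-1 set, 0.37 for other basic zipper factors, -0.03 for MAP kinases and upstream factors, 0.04 for other immediate early genes, 1.55 for AP-1 targets and 1.91 for the 2 interferon regulatory factor partners of Batf (Irf4 and Irf8).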

How the data were processed

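The authors deposited unnormalized counts per gene. The submitters' processing notes list STAR 2.5.2b, Subread 1.5.2 with featureCounts, Trimmomatic 0.36, bcl2fastq 2.17 and the build mm10. For settings, strand and annotation release: not given in the sources used here.

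Columns were tied to samples by name, which gave 10 of 20 samples in 2 of 4 groups. A further 10 columns, headed by bare numbers, match no label and were not used. Symbols, spans and exon lengths came from GENCODE M21.

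Counts were filtered with filterByExpr (16500 genes left), scaled by TMM and fitted in edgeR 4.0.16 (R 4.3.3) with group as the only term, using the robust quasi-likelihood test. DESeq2 1.42.0 was an alternative. Standard errors are absolute log2 fold changes over the square root of F. A floor of 3 counts is 0.112 to 0.450 CPM over the libraries, and the lowest count of any of the 10 genes in a library was 117. Libraries of a group differed by more than sampling noise in every pair (chi-square per degree of freedom at least 6.57).

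The genes and lists were chosen with earlier results of these data known. From each list the 2 called genes with the largest rise and the 2 with the largest fall, at 5 CPM or more in the higher group, are named. Ccr3, Siglecf, Epx, Prg2, Retnlg, Gm11175, Junos, Ccdc85b, Prdx2, Arl2 and the search for TGACG were added after seeing the data or sequences. Batf3 and Cebpe stand in a marker list as well, and Maff in 2 lists. Some genes are not reported here.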

Additional observations from a re-analysis of the deposited data

Results flagged for a closer look

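None of the 10 AP-1, ATF3 and BATF genes had a library far from the rest of its group by Dixon's test at the 95% level, which chance exceeds in about 1 of 20 groups. Of 56 groups of 5 libraries checked (the 10 genes and the 18 named genes of the lists), 4 had such a library. Map2k4 stood at 171 CPM in day 7 replicate 1 against 116 to 130.0 CPM in the others. Mmp3 stood at 1.95 CPM in the same library against 0.31 to 0.66 CPM. Irf8 was at 108 CPM in resting replicate 4 against 65.1 to 71.3 CPM. Irf4 was at 5.77 CPM in resting replicate 2 against 6.90 to 7.04 CPM.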

How the results depend on the processing

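Other settings comprised size factors by median of ratios, library totals alone, no filter on low counts, DESeq2's Wald test, day 7 counts thinned to the mean resting total, the replicate number as a block, and leaving out each library. A further setting, without 3 pools low in Ccr3, was added after seeing the data. Under all of these Fosb, Fosl1, Jun and Atf3 remained lower and Batf and Batf2 higher at an adjusted p below 0.05. Genes called higher over the whole table numbered 3843, and 2495 with library totals alone. Genes called lower numbered 3859, and 6715 without a filter on low counts. Jund, which did not pass, had a log2 fold change of -0.09 that turned to 0.016 without the filter and to 0.043 without the 3 pools, and lay between -0.34 and 0.055 when single libraries were left out. With exon length taken from the longest transcript, 2 pairs of genes changed order in the graft, Jun with Fosl2 and Jun with Batf2. When single libraries were left out, 2 to 3 of the 10 genes were higher and 5 to 6 lower, and over all genes tested, 3507 to 3976 were higher and 3669 to 4020 lower. With library totals alone 8 other basic zipper factors and 11 MAP kinases and upstream factors were lower. With the replicate number as a block, 2 of the 10 genes were higher and 5 lower, and Fosl2 lost its call (adjusted p = 0.0876). Same-numbered libraries correlated at -0.188 to 0.12 in their deviations from the group means. The labels give no pairing by number, and correlations over so few pools cannot settle whether the numbers share a source. Each of the 10 genes had 117 counts or more in every library. With day 7 counts thinned, 2 of them were higher and 5 lower, Fosl2 having lost its call (adjusted p = 0.0631).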
